A study of Mus musculus with 18 samples.

Results

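The comparison described here is the sort of Pitx3 reporter positive against Pitx3 reporter negative cells, 6 of the 18 arrays of the series. Its members are the 3 arrays titled as the positive and the 3 titled as the negative fraction of the Pitx3 line, and arrays with the same number were taken as a pair. The cells are mouse embryonic stem cells (mESC) of strain J1 that carry Pitx3::YFP, a transgene in which a large genomic fragment around a gene (a bacterial artificial chromosome, BAC) lets the regulatory region of Pitx3 drive a yellow fluorescent protein. They were differentiated toward midbrain dopamine neurons and separated by fluorescence-activated cell sorting between day 14 and day 15. The groups used are Pitx3::YFP+ (3 arrays) and Pitx3::YFP- (3 arrays), and for comparison Nurr1::GFP+ and Nurr1::GFP- (3 arrays each) and Hes5::GFP+ and Hes5::GFP- (3 arrays each), all of strain J1 and sorted in the same window of days. Both fractions of a line carry the transgene, so a negative fraction holds every cell of the culture in which the reporter was dim, and a positive fraction depends on how faithfully the transgene follows the gene. The labels give 1 line per reporter, and they do not say whether replicates were separate differentiations, so the spread behind each p-value is that among these arrays and may be technical.

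Pitx3 is a homeobox transcription factor that within the brain is found almost only in dopamine neurons of the midbrain, the cells of the substantia nigra and ventral tegmental area that are lost or impaired in Parkinson disease. These neurons arise from floor plate progenitors that make Sonic hedgehog, Foxa2 and Lmx1a. They leave the cell cycle, switch on Nr4a2 (the gene of Nurr1) and then Pitx3, and together these factors turn on the genes that make, store and take up dopamine. Nurr1 therefore marks the dopamine lineage from an earlier step than Pitx3, and Hes5, a target of Notch signalling, marks neural progenitors.

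The 6 Pitx3 arrays had median probe intensities of 40.6 to 50.4 and detected 33.5% to 36.8% of their probes, and over all 18 arrays the medians ran from 40.6 to 60.2. All values below are log2 intensities after background correction and quantile normalization (normalized log2 intensity), and all differences are Pitx3 positive minus Pitx3 negative on that scale. A gene was called higher or lower at an adjusted p under 0.05 in limma, with the pair as a block and over all 13278 genes tested. Partner arrays correlated over all genes at 0.976 in pair 1, 0.924 in pair 2 and 0.947 in pair 3, so the fractions of pair 1 were the most alike. Reporter RNA, read by a probe for the green protein that also reads the yellow one, stood at 9.97, 11.12 and 10.98 in positive arrays 1 to 3, against 6.39, 6.52 and 6.07 in negative arrays 1 to 3. The sort used this reporter, so its difference of 4.36 only checks the labels. The 3 genes given as marks of these cells, Pitx3, Th and Ret, all fitted the label, as shown next. The regulatory region of Pitx3 drove the reporter, so the difference of Pitx3 RNA is tied to the sort and mainly checks the labels too.

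Pitx3, Th and Ret were all higher in the positive fraction, with no overlap between the groups. Without the pair block, limma still called Pitx3 (adjusted p = 0.0261) and Ret (0.0354), but not Th (0.0999). Th, the enzyme that limits how fast dopamine is made, read 12.78, 14.25 and 13.35 in positive arrays 1 to 3, against 7.69, 9.69 and 8.59 in negative arrays 1 to 3. The groups did not overlap, and Th was 28-fold higher in the positive fraction (log2 4.81, SE 0.48, limma adjusted p = 0.00386, higher in 3 of 3 pairs, as 30.8% of all genes were, with 30.8% lower in 3 of 3). Pitx3 itself read 7.88, 10.42 and 9.17 in the positive fraction, against 4.60, 5.85 and 4.73 in the negative one, where it was above background in 1 of 3 arrays. Its difference was 4.10 (SE 0.32, adjusted p = 0.00185), and that size is approximate because 2 negative arrays give only an upper limit. Ret, the signalling receptor for factors of the glial cell line-derived family (Gdnf), read 10.25, 11.51 and 10.38, against 7.08, 7.12 and 5.22 in negative cells. Ret was 18.9-fold higher (log2 4.24, SE 0.48, adjusted p = 0.00508) without overlap, and it was above background in 2 of 3 negative arrays. These sorted RNAs come from many cells, so fewer cells of a type and less RNA per cell cannot be told apart here or below.

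Slc6a3, the transporter that takes dopamine back into the neuron, had the widest spread of these genes. It read 7.57, 14.14 and 11.05 in positive arrays 1 to 3, against 4.68, 7.85 and 4.74 in negative arrays 1 to 3. Positive array 1 lay below negative array 2, so the groups overlapped, yet each positive array was far above its own partner, by 2.89, 6.29 and 6.31. The difference was 5.16 (SE 0.62, adjusted p = 0.00561), with Slc6a3 above background in 1 of 3 negative arrays. Ddc, which turns the product of Th into dopamine, read 13.54, 14.36 and 14.04 in positive cells, against 11.70, 13.13 and 12.51 in negative cells. Ddc was abundant in both and 2.89-fold higher in the positive fraction (log2 1.53, SE 0.32, adjusted p = 0.0194). The dopamine receptor Drd2, which also acts as an autoreceptor on these neurons, read 7.26, 9.11 and 7.59, against 5.84, 6.01 and 6.10, and was 4.01-fold higher (adjusted p = 0.0136).

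The rest of the dopamine machinery did not pass the test. Slc18a2, which loads dopamine into vesicles, read 8.71, 11.03 and 9.89 in positive arrays, against 8.64, 10.16 and 10.20 in negative arrays. Its difference was 0.20 (SE 0.43, adjusted p = 0.772), and within pair 3 it was lower in the positive array. Slc18a2 is used by serotonin neurons as well, whose genes were high in the negative fraction (below), and their part in this value was not tested. The enzymes of the cofactor that Th needs had values below 0, Gch1 at -0.69 (adjusted p = 0.148), Spr at -0.69 (0.0545), Qdpr at -0.64 (0.0562) and Pts at -0.39 (0.0742), and Pts did not overlap between the groups (8.71, 8.52 and 8.59, against 9.06, 8.97 and 8.97). In all, 4 of the 10 tested genes of dopamine synthesis, storage, uptake and breakdown were called higher and 0 lower, with a list median of 0.13, while 834 of all 13278 genes (6.28%) were called higher, 1163 (8.76%) were called lower and the median of all genes was 0.014. Without the pair block 1 of the 10 was called higher, as was 1 without pair 2 and 1 without pair 3. Aldh1a1 and Maoa were too dim to test.

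**Figure D1:**
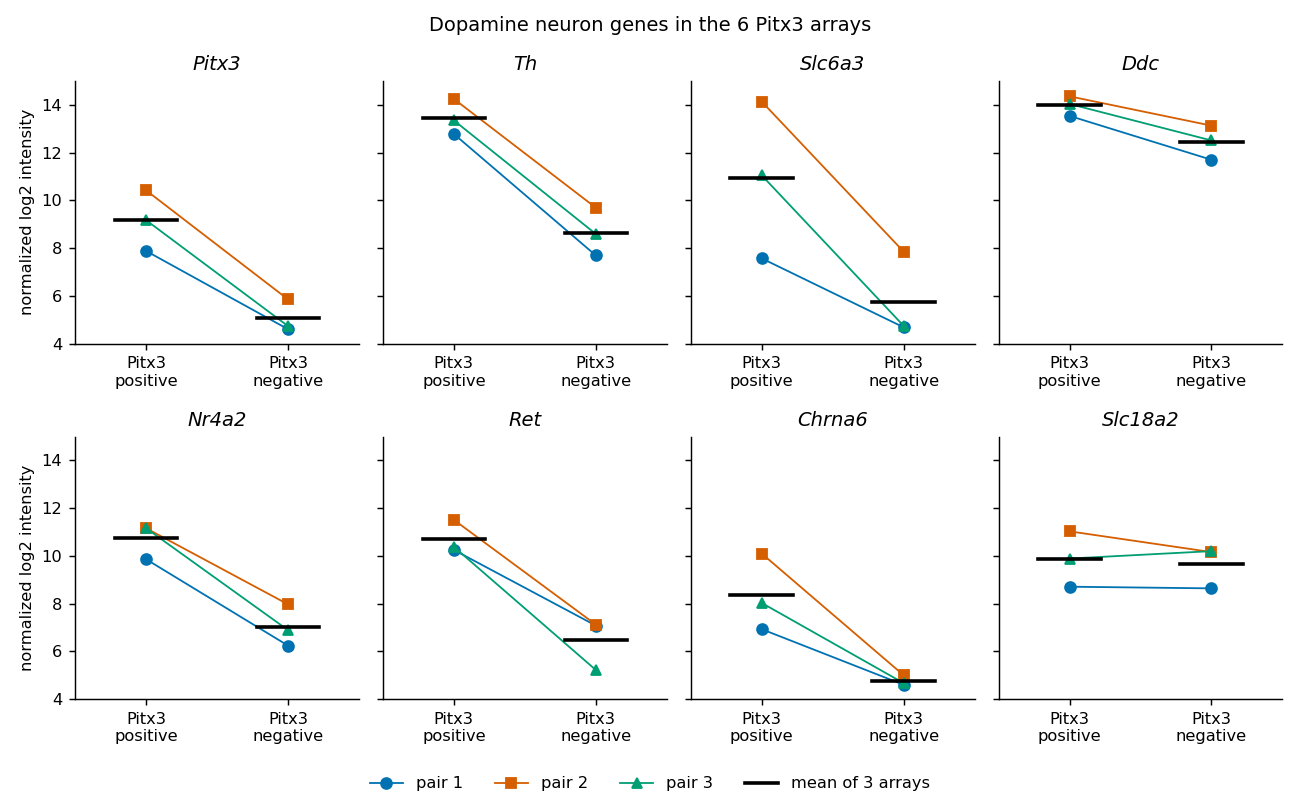
Normalized log2 intensity (vertical axes) of 8 dopamine neuron genes in the Pitx3 positive arrays (left) and the Pitx3 negative arrays (right), with lines joining the fractions of a pair and black bars for the mean of 3 arrays. Th, Pitx3, Nr4a2, Ret, Ddc and Chrna6 separate the groups completely, Slc6a3 only within pairs, and Slc18a2 not at all.

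Without the pair block, 47 genes (0.354%) were called higher and 9 (0.0678%) lower, and with pair 2 or pair 3 left out the counts were 26 and 3, or 14 and 2. Without pair 1 they were 667 and 1065. The counts by list below thus rest on pairs 2 and 3, and in the fits without 1 of these pairs at most 2 members of any list were called in either direction. Each of the 834 genes called higher was above 0 in 3 of 3 pairs, with medians of 0.64, 0.92 and 0.94 in pairs 1 to 3. Of the 1163 genes called lower, 1161 were below 0 in pair 1 and all 1163 in pairs 2 and 3, with medians of -0.60, -1.46 and -1.2. Pair 1 therefore showed the smallest median in both directions. The genes were called on these same pairs, so their agreement in sign is not a result. Over all genes 30.8% were higher and 30.8% lower in 3 of 3 pairs. In the fit of all arrays, counts by list stand beside 6.28% of all genes called higher and 8.76% called lower. With the 6 Pitx3 arrays fitted alone 821 genes were called higher and 634 lower, and the count of a list could move either way. In that fit 4 of 12 Bmp and Id genes, 2 of 12 glial lineage genes, 2 of 9 cyclin D and inhibitor genes and 0 of 9 stromal genes were called lower, against 7, 5, 5 and 3 in the fit of all arrays. Sizes are approximate where a called gene was above background in only 1 of 3 arrays of its lower group. Among the genes named, these were Slc6a3, Pitx3, Gfra1, Chrna3, Neurod4, Slc18a3, Chat, Slc1a2, Slc35d3, Slc39a4 and Tubb3 in negative arrays, and Fst, Dlx1, Maob, Isl1, Gli2, Gli3, Fgfr3 and Hoxa5 in positive arrays.

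Promoter sequences are given for 4 genes called higher, to show what the region next to the start holds in genes that move together. They are RefSeq windows of build GRCm38.p6, from 250 bases before to 50 bases after the gene start, printed 5′ to 3′ on the strand of the gene. Capitals mark a match to 1 of 3 motifs searched on both strands, which were AAAGGTCA (the site bound by a single Nr4a receptor), TAATCC (the site of Pitx factors) and TCCCNNGGG (the core of the Ebf site). The Th window (chr7:142899946-142900245, minus strand) holds none of the 3. The Ddc window (chr11:11898095-11898394, minus strand, 1 of 2 windows listed for the gene) holds an Nr4a match on the opposite strand, 73 bases before the start. The windows of Cck (chr9:121495645-121495944, minus strand) and Ebf3 (chr7:137314396-137314695, minus strand) hold an Ebf match 159 and 22 bases before the start.
Th: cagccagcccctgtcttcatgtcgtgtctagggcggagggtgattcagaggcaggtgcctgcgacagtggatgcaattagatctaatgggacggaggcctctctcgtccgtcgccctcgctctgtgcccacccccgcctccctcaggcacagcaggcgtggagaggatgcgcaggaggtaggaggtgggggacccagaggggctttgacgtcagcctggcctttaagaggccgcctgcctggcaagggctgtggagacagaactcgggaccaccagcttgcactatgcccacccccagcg
Ddc: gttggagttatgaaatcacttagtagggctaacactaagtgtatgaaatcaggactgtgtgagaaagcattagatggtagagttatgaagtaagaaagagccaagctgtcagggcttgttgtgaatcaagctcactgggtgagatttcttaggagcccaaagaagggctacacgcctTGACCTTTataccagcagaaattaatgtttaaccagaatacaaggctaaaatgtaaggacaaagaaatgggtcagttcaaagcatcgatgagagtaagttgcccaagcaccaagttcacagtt
Cck: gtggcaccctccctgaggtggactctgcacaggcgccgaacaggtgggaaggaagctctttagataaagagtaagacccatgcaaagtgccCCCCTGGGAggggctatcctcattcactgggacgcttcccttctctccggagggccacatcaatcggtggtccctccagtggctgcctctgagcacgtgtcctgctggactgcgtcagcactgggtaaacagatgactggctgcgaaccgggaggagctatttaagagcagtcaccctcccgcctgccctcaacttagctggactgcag
Ebf3: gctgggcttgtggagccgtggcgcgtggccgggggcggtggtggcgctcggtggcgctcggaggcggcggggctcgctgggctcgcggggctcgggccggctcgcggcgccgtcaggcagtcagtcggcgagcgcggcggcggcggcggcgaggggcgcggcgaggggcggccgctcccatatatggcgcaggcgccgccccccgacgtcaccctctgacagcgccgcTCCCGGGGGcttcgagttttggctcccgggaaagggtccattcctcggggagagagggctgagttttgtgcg

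Among all 8149 tested genes with a window, 0.945% held the Nr4a motif, 7.01% the Pitx motif and 9.69% the Ebf motif. Of the 468 genes called higher that had a window, 0.427% (2 genes) held the Nr4a motif, 7.69% the Pitx motif and 11.5% the Ebf motif. Of the 783 genes called lower with a window, the shares were 1.28%, 7.02% and 10.2%. These shares are descriptions of short windows with no test. The windows of Pitx3, Nr4a2 and Slc6a3 held none of the 3 motifs.

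Of 10 transcription factors of midbrain dopamine neurons, 6 were called higher in the positive fraction and 0 lower, with a median of 1.10, and 1 was called higher without the pair block. Nr4a2, the nuclear receptor without which these neurons do not acquire their transmitter, read 9.86, 11.16 and 11.16 in positive arrays, against 6.24, 7.97 and 6.89 in negative arrays. The groups did not overlap, and Nr4a2 was 12.9-fold higher (log2 3.69, SE 0.36, adjusted p = 0.00357). Lmx1a, which specifies floor plate progenitors as dopaminergic and stays on in the neurons, read 11.83, 12.13 and 12.35, against 9.98, 10.07 and 10.29. It was 3.97-fold higher (adjusted p = 0.0114), with nearly the same step of 1.85, 2.06 and 2.06 in pairs 1 to 3. The survival factors En1 (log2 1.38, adjusted p = 0.0155) and En2 (1.27, 0.0202) and the floor plate factor Foxa2 (0.94, 0.0196) were higher without overlap as well. Foxa1 (0.69, adjusted p = 0.131) and Otx2 (0.85, 0.405), a factor of forebrain and midbrain, lay above their negative arrays in all 3 positive arrays without passing the test. Lmx1b (0.38, adjusted p = 0.0701) and Satb1 (-0.12, 0.548) overlapped. Sox6 could not be tied to probes.

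Receptors for outside signals followed. Gfra1, the co-receptor that presents Gdnf to Ret, read 6.34, 7.38 and 7.25 in positive arrays, against 5.76, 5.81 and 5.50, and was 2.47-fold higher (adjusted p = 0.0138), with 1 of 3 negative arrays above background. Ntrk2, the receptor for brain-derived neurotrophic factor, was lower, at 6.61, 7.38 and 6.91, against 6.72, 9.31 and 8.55 (log2 -1.22, SE 0.35, adjusted p = 0.0465). Its pair 1 values were nearly equal, and a second probe of Ntrk2 was not called (-0.52, adjusted p = 0.239). Gdnf, Ntrk3 and Ngfr were not called. In all 2 of 6 tested members of this list were higher and 1 lower, against 6.28% and 8.76% of all genes.

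Of the nicotinic acetylcholine receptor subunits, 4 of 7 tested were higher and 0 lower, with a median of 1.32, against 6.28% of all genes higher. Chrna6, the alpha subunit typical of midbrain dopamine neurons, read 6.93, 10.10 and 8.03 in positive arrays and was above background in none of the negative arrays (4.60, 5.0 and 4.67). It was at least 5.82-fold higher (adjusted p = 0.00503), where the bound sets the positive mean against the lowest signal measured above background on the negative arrays. Chrnb4 read 7.13, 7.33 and 8.01, again with no negative array above background (5.60, 5.12 and 5.05), and was at least 3.19-fold higher (adjusted p = 0.0104). Chrna3 read 7.38, 7.35 and 9.20, against 5.84, 4.97 and 4.79 (log2 2.78, SE 0.53, adjusted p = 0.0171), and with 1 of 3 negative arrays above background that size is approximate. Chrnb2 was higher within every pair (1.32, adjusted p = 0.0451) but overlapped between pairs. Chrna5 (1.06, adjusted p = 0.0597) and Chrna4 (0.82, 0.110) did not overlap yet did not pass, and Chrnb1 stood at -0.77 (0.0806). The other Chrna4 probes stood at 0.94 (adjusted p = 0.0301) and 0.76 (0.153).

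Genes used to tell the 2 kinds of midbrain dopamine neuron apart were found on both sides. Of those associated with the substantia nigra, Slc6a3, Drd2 and Lmo3 were higher (3 of 5 tested, against 6.28% of all genes). Igf1 (-0.14, limma adjusted p = 0.59) and Sncg lay below 0 and were not called. Slc6a3 and Drd2 are also members of the dopamine machinery list. Lmo3, a cofactor of transcription, read 9.40, 10.78 and 9.88, against 7.75, 8.0 and 7.98 (log2 2.11, adjusted p = 0.0123). Of those associated with the ventral tegmental area, 2 of 9 tested were higher and 2 lower, against 6.28% and 8.76% of all genes. The neuropeptide Cck, which these neurons release beside dopamine, read 11.32, 12.02 and 11.65 in positive arrays, against 7.52, 8.50 and 7.04 in negative arrays, and was 15.7-fold higher (adjusted p = 0.00357). Slc17a6, the vesicular glutamate transporter of neurons that also release glutamate, read 12.31, 13.24 and 13.45, against 8.86, 10.32 and 9.91, and was 9.87-fold higher (adjusted p = 0.00641). Fst (log2 -1.16, adjusted p = 0.0374) and Lpl (-0.64, 0.0272) were lower, and Calb2, a calcium-binding protein, was not called (-0.19, 0.789). In the fit without pair 2, 0 of the 5 nigral genes and 1 of the 9 ventral tegmental genes were called higher. The fit without pair 3 gave the same counts. Sox6, Aldh1a1 and Calb1, which most often separate the subtypes, could not be tied to probes or were too dim to test.

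Ebf factors and other drivers of neuronal differentiation were called higher in 9 of 12 tested and lower in 1, with a median of 1.18, while 6.28% of all genes were called higher. Ebf3 read 10.69, 11.78 and 11.53 in positive arrays, against 7.59, 8.38 and 8.20, and was 9.70-fold higher (adjusted p = 0.0049). Ebf2 (log2 2.34, adjusted p = 0.00563) and Ebf1 (1.31, 0.0104) were higher without overlap, while Ebf4 stood at -0.17 (0.562). Neurog2, the proneural factor of the midbrain dopamine lineage, was higher at 10.17, 9.50 and 10.33, against 8.14, 8.97 and 9.25 (log2 1.21, adjusted p = 0.0486), though its second probe was not called (0.63, 0.108). Insm1 and Neurod4 (log2 1.19 and 1.25) were higher as well, while the member called lower stood at -1.43.

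Some of the largest rises lay outside the lists. Necab1, a calcium-binding protein of neurons, read 9.39, 10.28 and 10.24, against 6.14, 6.30 and 5.94 (log2 3.84, SE 0.42, adjusted p = 0.0049). The modulatory potassium channel subunit Kcnv2 read 8.77, 7.81 and 8.74 and was above background in no negative array (5.32, 5.56 and 5.16), at least 6.18-fold higher (adjusted p = 0.00357). Myrip, which links vesicles to myosin and Rab27, read 9.51, 10.15 and 10.19, against 6.35, 7.64 and 6.63 (3.07, adjusted p = 0.00561). Nrn1, a membrane-anchored protein that promotes neurite growth, read 11.94, 12.21 and 12.55, against 8.87, 9.64 and 9.36 (2.94, adjusted p = 0.00546). Slc35d3 (2.83, adjusted p = 0.00503), known in mouse for its part in dopamine receptor trafficking, and the phosphodiesterase Pde1a (2.84, 0.0175) were higher too. These 6 genes were picked among called genes whose groups did not overlap, so their lack of overlap is not a result. Over all genes 9.38% had every positive above every negative array and 7.67% every positive below.

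General neuronal genes were shifted upward with few calls. The cytoskeleton genes of all neurons had a median of 0.80, yet 1 of 18 was called, Tubb3 (0.84, adjusted p = 0.0198), which was above background in 3 of the 6 arrays. Stmn2 (0.94, adjusted p = 0.15) and Gap43 (0.99, 0.112), both abundant in growing axons, were high in both fractions. Stmn2 read 12.96, 14.18 and 13.58, against 11.93, 13.48 and 12.49. With the 6 Pitx3 arrays fitted alone, 11 of the 18 were called higher. Of the 27 synaptic vesicle and exocytosis genes, 3 were called higher and 0 lower with a median of 0.65 (11 higher and 1 lower in the fit of 6 arrays). These were Syt13 (at least 2.52-fold, adjusted p = 0.0154), Cadps (1.36, 0.0499), which primes dense-core vesicles, and Unc13a (1.21, 0.0381). Syt1, the calcium sensor of fast release, lay the other way, at 10.20, 10.28 and 9.73, against 11.26, 12.72 and 11.49, without passing the test (-1.76, adjusted p = 0.0549). The other Syt1 probes did pass as lower, at -0.99 (adjusted p = 0.0243) and -1.73 (0.0398).

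Channel, synaptic organizer, receptor, guidance and RNA-binding genes were called to differing extents, against 6.28% of all genes called higher and 8.76% lower. Of 24 voltage-gated and inward rectifier channel genes, 8 were called higher and 1 lower. They included the auxiliary calcium channel subunits Cacna2d3 (log2 2.03, adjusted p = 0.0289), Cacna2d2 (1.59, 0.00666) and Cacna2d1 (1.17, 0.0427) and the sodium channel subunits Scn3b (1.90, 0.0118) and Scn3a (1.28, 0.0272), with Cacnb2 lower (-1.27, 0.0158). The other Scn3b probes stood at 1.99 (adjusted p = 0.00679), 1.98 (0.00343) and 0.13 (0.549), and those of Cacnb2 at -1.65 (0.0115) and -0.27 (0.277). Of 16 synaptic organizers, 4 were higher: C1ql1 (7.80, 8.65 and 8.68, against 5.31, 6.17 and 6.07, adjusted p = 0.00445), Nxph3 (at least 2.63-fold, 0.00185), Cbln4 (1.90, 0.0279) and Nrxn3 (1.55, 0.0265). Of the glutamate and GABA receptor subunits, 2 were higher, among them Gria3 (2.06, adjusted p = 0.013), and Grm7 was at least 1.23-fold lower (0.0221), with 10 of 13 not called. Of 22 guidance genes 2 were higher and 2 lower (9.09% each way), near the shares of all genes, with a median of 0.01. Robo1, a receptor for Slit that steers midbrain axons, was higher (1.22, adjusted p = 0.0139), though its second probe was not (0.14, 0.634). Sema3f (0.59, 0.0212) was higher too, while Epha3 (-0.89, 0.0318) and Efnb1 (-0.73, 0.0187) were lower. The other Epha3 probes, at -0.51 (adjusted p = 0.144) and 0.10 (0.662), were not called. Among the neuronal RNA-binding proteins, Celf4 (1.56, adjusted p = 0.0217), Elavl2 (1.22, 0.0194) and Celf5 (0.82, 0.0422) were higher, 3 of 13.

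Genes of energy supply were hardly called. None of the 25 oxidative phosphorylation subunits was called by limma, with a median of -0.07, and Atp5b read 14.26, 14.53 and 14.44 in positive arrays, against 14.26, 14.49 and 14.34 in negative arrays. Of 18 glycolysis genes, Pfkm was higher (0.43, adjusted p = 0.0457) and Hk2 lower (-1.05, 0.0424). Gapdh differed by -0.02 (adjusted p = 0.936). Of 15 genes linked to Parkinson disease, 2 were higher (13.3%, against 6.28% of all genes). Among these, Dnajc6, the auxilin that uncoats clathrin vesicles, read 10.96, 12.43 and 11.95, against 9.28, 10.58 and 9.65 (1.94, adjusted p = 0.00893). Park7, Uchl1 and Gak were not called (-0.43, 0.58 and 0.05).

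**Figure D2:**
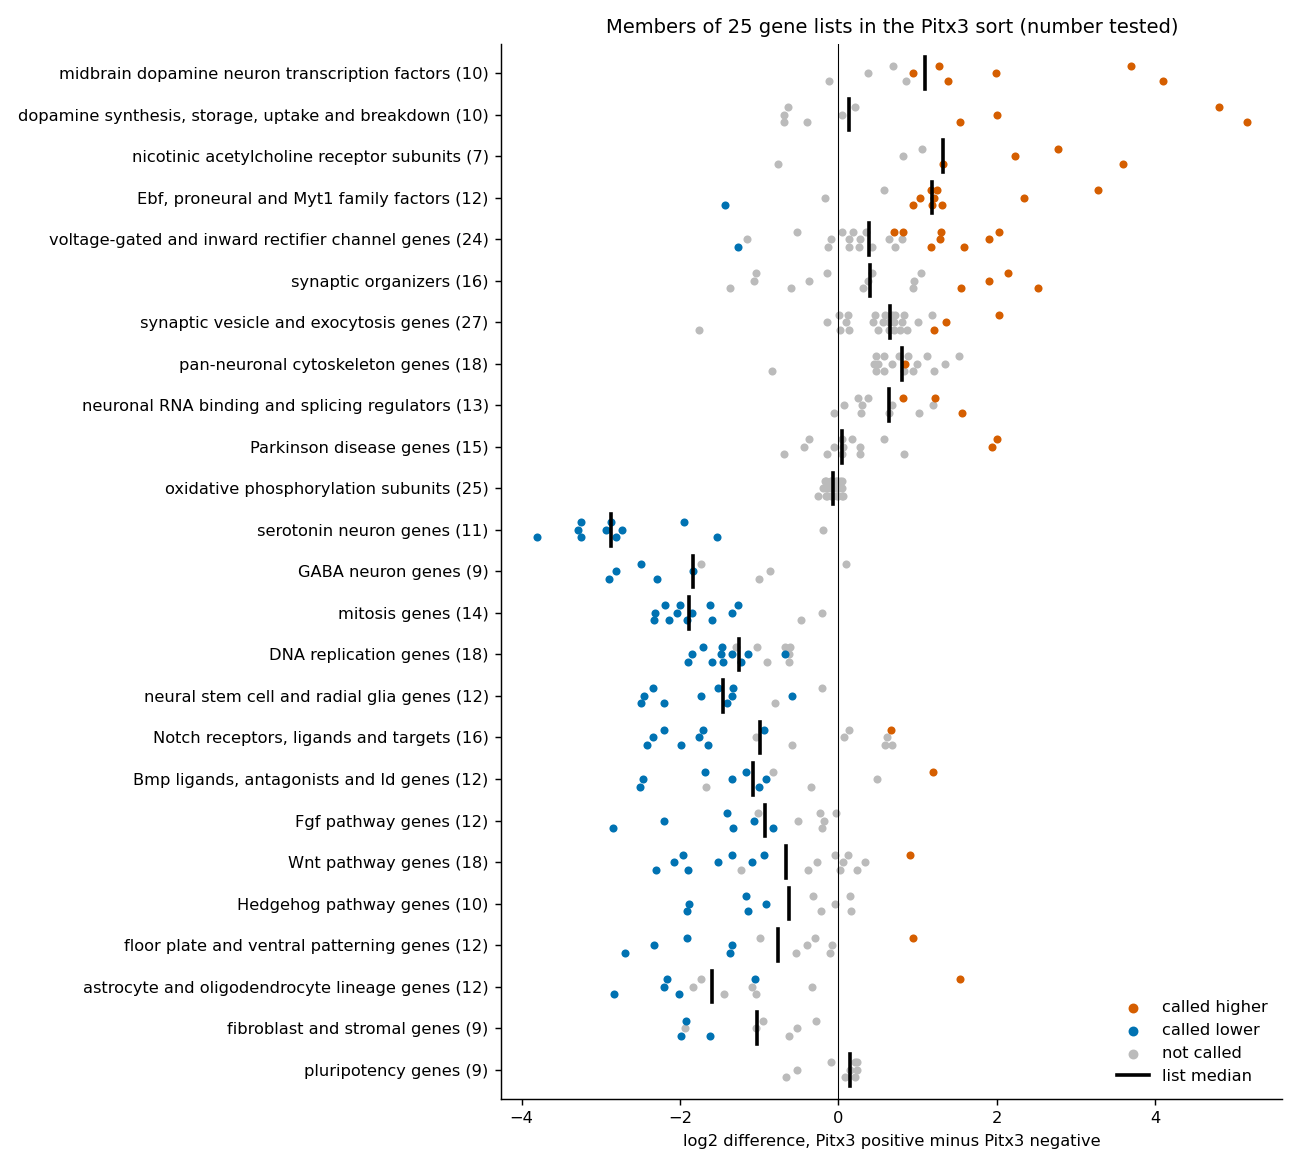
Log2 difference of Pitx3 positive minus Pitx3 negative cells (horizontal axis) for every tested member of 25 gene lists, 1 point a gene, with the number tested in brackets, colours for genes called higher, called lower or not called, and black bars for list medians. Dopamine neuron transcription factors, nicotinic subunits and Ebf genes lie to the right (medians 1.10, 1.32 and 1.18), dopamine synthesis and transport genes on both sides (0.13), serotonin genes farthest to the left (-2.87), and oxidative phosphorylation genes in a narrow band at 0.

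Among the largest falls were genes of serotonin neurons, which arise just behind the midbrain and share the vesicular transporter and several enzymes with dopamine neurons. Of 11 tested, 10 were called lower and 0 higher, with a median of -2.87, against 8.76% of all genes called lower. Tph2, the enzyme that commits tryptophan to serotonin in neurons, read 8.05, 7.15 and 7.81 in positive arrays, against 10.33, 11.84 and 10.71 in negative arrays. It was 9.78-fold lower (log2 -3.29, SE 0.55, adjusted p = 0.013) without overlap and remained above background in 3 of 3 positive arrays. Slc6a4, the serotonin transporter, read 8.32, 5.69 and 7.43, against 10.65, 11.48 and 10.72, and was 14-fold lower (adjusted p = 0.0123). Fev, the factor that defines these neurons, read 7.08, 7.03 and 7.42, against 9.29, 11.51 and 10.48, and was 9.51-fold lower (adjusted p = 0.0104). Gata2, Gata3, Gchfr, Maob and Slc17a8 were lower too, by -2.73 to -3.24, and Tph1 was not (-0.20, adjusted p = 0.65). Every pair showed the list median below 0, at -1.80, -4.02 and -2.83, and the summed linear level of the 11 genes was 1270 to 2260 in positive arrays, against 8900 to 21600 in negative arrays. Without pair 2 or pair 3, 2 or 1 of the 11 were still called lower.

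Genes of GABA neurons were lower in 5 of 9 tested, with 0 higher and a median of -1.83. Gad1, which makes the transmitter, read 7.08, 5.73 and 7.05, against 7.98, 9.62 and 9.73 (log2 -2.49, SE 0.53, adjusted p = 0.0203). Slc32a1, which loads it into vesicles, read 7.72, 5.85 and 7.51, against 8.48, 9.52 and 9.95 (-2.29, adjusted p = 0.0203), and both were above background in 2 of 3 positive arrays. The forebrain interneuron factors Dlx1 (-2.90, adjusted p = 0.0123) and Dlx2 (at least 1.82-fold, 0.0351) were lower too, with Dlx1 above background in 1 of 3 positive arrays and its size therefore approximate. With the 6 Pitx3 arrays fitted alone, 2 of the 9 were called lower. The step was small in pair 1, where the list median was -0.56, against -2.57 and -2.44 in pairs 2 and 3. Trh, the thyrotropin-releasing peptide, was lower at 8.07, 6.59 and 6.75, against 9.34, 11.20 and 9.22 (-2.78, adjusted p = 0.0193), as were the peptide gene Pdyn (-1.73, 0.0171) and Cryba2 (-2.75, 0.0127). Of motor and cholinergic genes, the neighbouring genes Slc18a3 (1.47, adjusted p = 0.015) and Chat (1.11, 0.026) were higher and Isl1 lower (-1.71, 0.0318). Isl1 read 9.84, 4.62 and 5.88 in positive arrays, against 10.14, 7.02 and 8.31 in negative arrays, so it was high in both fractions of pair 1. Dbh and Slc6a2, which mark noradrenergic neurons, Gad2 and Slc17a7 were too dim to test.

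Of 12 neural stem cell and radial glia genes, 10 were called lower and 0 higher, with a median of -1.46, and 4 were called lower with the 6 Pitx3 arrays fitted alone. Sox2 read 8.52, 6.15 and 7.56 in positive arrays, against 8.98, 8.88 and 9.56 in negative arrays (log2 -1.73, SE 0.38, adjusted p = 0.0219). Nes, an intermediate filament of neural progenitors, read 9.78, 6.73 and 8.59, against 10.55, 10.17 and 11 (-2.21, adjusted p = 0.0155). Sox9 (-2.34, adjusted p = 0.0176) and the glutamate transporter of radial glia Slc1a3 (-2.46, 0.0186) were lower without overlap. All 6 values of Sox2, Sox9 and Nes were above background in both fractions.

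Of 16 Notch receptors, ligands and targets, 8 were lower and 1 higher, with a median of -0.99, and 2 were lower and 1 higher with the 6 arrays fitted alone. Hes5, the target used as the progenitor reporter, read 10.83, 8.16 and 10.24, against 11.67, 12.08 and 12.73 (log2 -2.42, SE 0.48, adjusted p = 0.0176). Hes1 (-1.99, adjusted p = 0.0198), the feedback inhibitor Nrarp (-2.34, 0.0123) and the receptors Notch1 (-1.70, 0.0193) and Notch3 (-2.20, 0.0136) were lower, and the ligand Jag2 was higher (0.67, 0.0254). Dner and Mfng stood at 0.68 and 0.13 and were not called.

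Of 10 Hedgehog genes 5 were called lower and 0 higher (2 lower with the 6 Pitx3 arrays fitted alone), and 8 of the 10 lay below 0. Shh, the ligand secreted by the floor plate, read 11.70, 8.11 and 9.67, against 12.61, 10.62 and 12 (log2 -1.92, SE 0.37, adjusted p = 0.0176). Its receptor Ptch1 (-0.92, adjusted p = 0.0225), the signal transducer Smo (-1.15, 0.0123) and the effectors Gli2 (-1.16, 0.0394) and Gli3 (-1.88, 0.017) were the others called lower. Boc, Cdon and Sufu were not called, nor was a second Ptch1 probe (-0.50, adjusted p = 0.0902). Corin, a floor plate protease, was lower (-1.36, adjusted p = 0.0447), as were Spon1 (-2.32, 0.0143) and Nkx2-2 (-2.70, 0.00645), a patterning factor of cells beside the floor plate, whereas Foxa2 and Lmx1a of the same region were higher. The floor plate list had 5 of 12 lower and 1 higher (2 lower and 1 higher with the 6 arrays alone).

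Wnt, Fgf and Bmp signalling genes were called lower more often than higher. Of 18 Wnt genes 8 were lower and 1 higher, with Wnt7b at 7.13, 5.37 and 6.71, against 7.99, 8.90 and 9.22 (log2 -2.30, adjusted p = 0.0162), Wnt7a at least 2.49-fold lower (0.0154) and the receptor gene Fzd8 at least 1.37-fold higher (0.0171). Wnt5a, which acts in dopamine axon growth, differed by 0.12 (adjusted p = 0.763), and its other probes stood at 0.32 (0.398) and -0.24 (0.377). Of 12 Fgf genes 6 were lower and 0 higher. Fgfbp3, a secreted carrier of Fgf, read 7.86, 6.71 and 8.48, against 9.96, 10.84 and 10.81 (-2.85, SE 0.40, adjusted p = 0.0104), and Fgfr3 was lower (-2.20, 0.0171). Of 12 Bmp and Id genes 7 were lower, among them Id4 (-2.50, adjusted p = 0.0123), Id1 (-2.46, 0.0262) and Id3 (-1.69, 0.0162), inhibitors of basic helix-loop-helix factors, while the ligand Bmp5 was higher at 6.77, 7.26 and 7.04, against 6.0, 5.92 and 5.55 (1.2, adjusted p = 0.0108).

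Cell cycle genes differed unevenly among the pairs. Of 14 mitosis genes 12 were called lower and 0 higher, with a median of -1.88, and of 18 DNA replication genes 11 were lower and 0 higher, with a median of -1.26. Mki67, the usual mark of cycling cells, read 9.70, 4.97 and 7.81 in positive arrays, against 10.70, 8.63 and 9.57 in negative arrays (log2 -2.14, SE 0.41, adjusted p = 0.0171). It was not above background in positive array 2 and was higher in positive array 1 than in negative arrays 2 and 3. Top2a, the topoisomerase of dividing cells, followed the same order with 10.63, 4.97 and 8.66, against 11.51, 9.48 and 10.21 (-2.31, adjusted p = 0.0319), and its second probe was not called (-0.66, 0.101). The median of the mitosis list was -0.66, -3.22 and -1.59 in pairs 1 to 3. When the 6 Pitx3 arrays were fitted alone, and when the pair block was left out, 0 of the 14 mitosis genes were called, while 7 and 0 of the 18 replication genes were. The cyclin genes Ccnd1 (-2.41, adjusted p = 0.0176), Ccnd2 (-0.89, 0.0155) and Ccnd3 (-1.12, 0.0176) were lower and the cell cycle inhibitors Cdkn1a and Cdkn1c were not called (0.18 and -0.26).

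**Figure D3:**
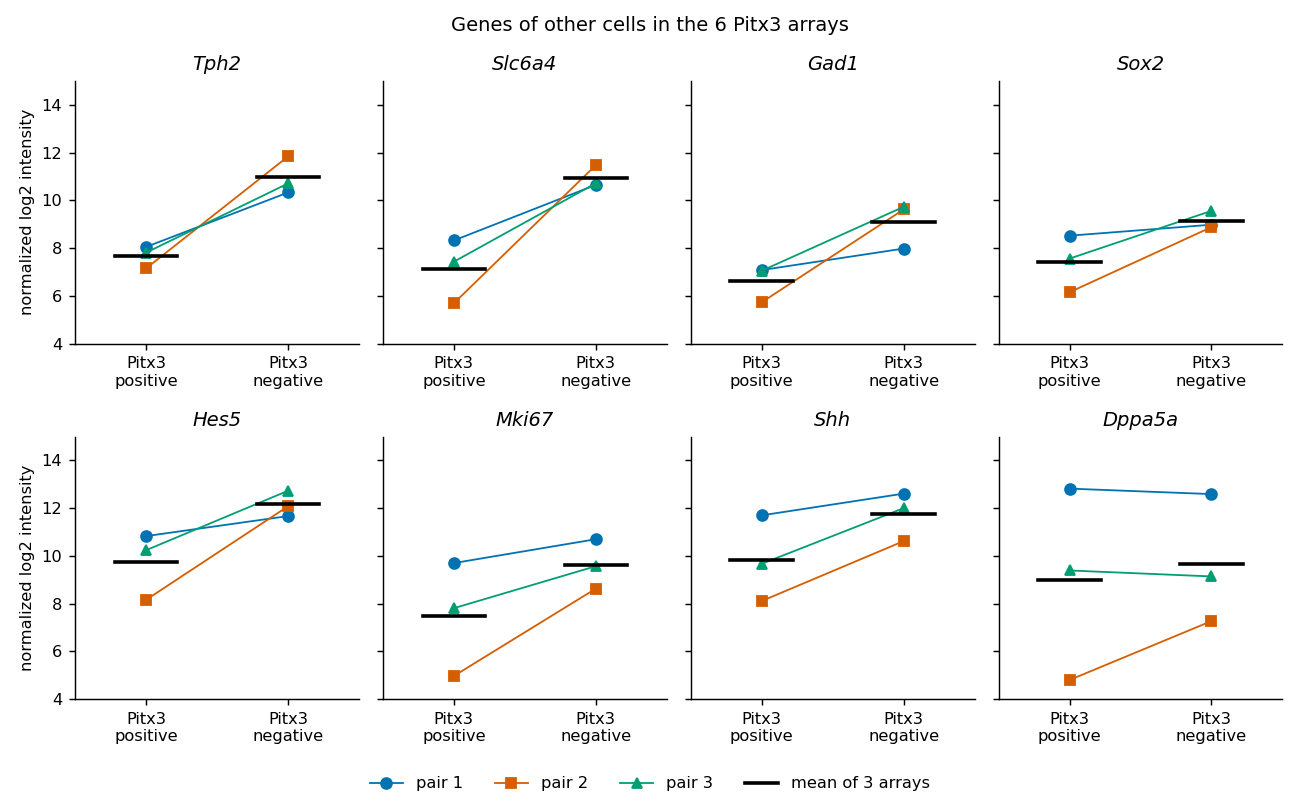
Normalized log2 intensity (vertical axes) of 8 genes of other cell types and states in the Pitx3 positive arrays (left) and the Pitx3 negative arrays (right), with lines joining the fractions of a pair and black bars for the mean of 3 arrays. Tph2 and Slc6a4 fall in every pair, Mki67 and Hes5 fall least in pair 1, and Dppa5a follows the pair rather than the fraction.

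Markers of further cell types were uneven among the pairs. Of 9 tested pluripotency genes 0 were called by limma in either direction, with a median of 0.15. Dppa5a, a gene of undifferentiated cells, read 12.82, 4.80 and 9.39 in positive arrays, against 12.59, 7.27 and 9.14 in negative arrays, so it was high in both fractions of pair 1. The summed linear level of these 9 genes was 259 to 9540 in positive arrays, against 479 to 7860 in negative arrays. Pou5f1, which is required for pluripotency, was above background in 1 of 3 arrays of each fraction. Of 9 fibroblast and stromal genes, Dcn (10.78, 8.78 and 9.40, against 11.63, 11.85 and 11.44, adjusted p = 0.0176), Col5a1 (-1.92, 0.0276) and Fbln2 (-1.62, 0.0324) were lower. A second Fbln2 probe was not called (-0.96, adjusted p = 0.0618). The summed level of the 9 genes was 887 to 6790, against 4830 to 9600. The part of these other cells in the cell cycle, progenitor and signalling differences was not tested.

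Of 12 astrocyte and oligodendrocyte lineage genes 5 were lower and 1 higher. Olig1 read 5.21, 7.13 and 8.15, against 6.88, 11.10 and 11 (log2 -2.83, adjusted p = 0.0108), and Sox10 4.68, 6.13 and 6.70, against 4.96, 9.58 and 9.59 (-2.21, 0.0472). Both were thus low in the 2 fractions of pair 1, and the list median was -0.31, -3.01 and -1.75 in pairs 1 to 3. Aqp4, a water channel of astrocytes, was lower (-2.16, adjusted p = 0.0215), while the glutamate transporter Slc1a2 was higher (7.09, 7.32 and 6.90, against 5.19, 5.93 and 5.59, adjusted p = 0.0049). Of 11 Hox genes, which mark hindbrain and spinal cord, Hoxa2, Hoxa4 and Hoxa5 were lower (-1.66, -1.51 and -1.69) and 0 were higher. Blood, endothelial and endoderm markers gave 6 tested genes, none of them called in limma and none above background in more than 2 of 3 arrays of a fraction, while Pecam1, Cdh5, Ptprc, Afp and Ttr were too dim to test. Of 15 imprinted genes, H19 (-1.99, adjusted p = 0.0229), Mest (-1.48, 0.0227), Igf2 (-1.14, 0.0474) and Peg3 (-1.01, 0.0219) were lower and Dlk1 higher (0.97, 0.0451). The other Peg3 probes stood at -0.88 (adjusted p = 0.0229) and -0.50 (0.0834).

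**Figure D4:**
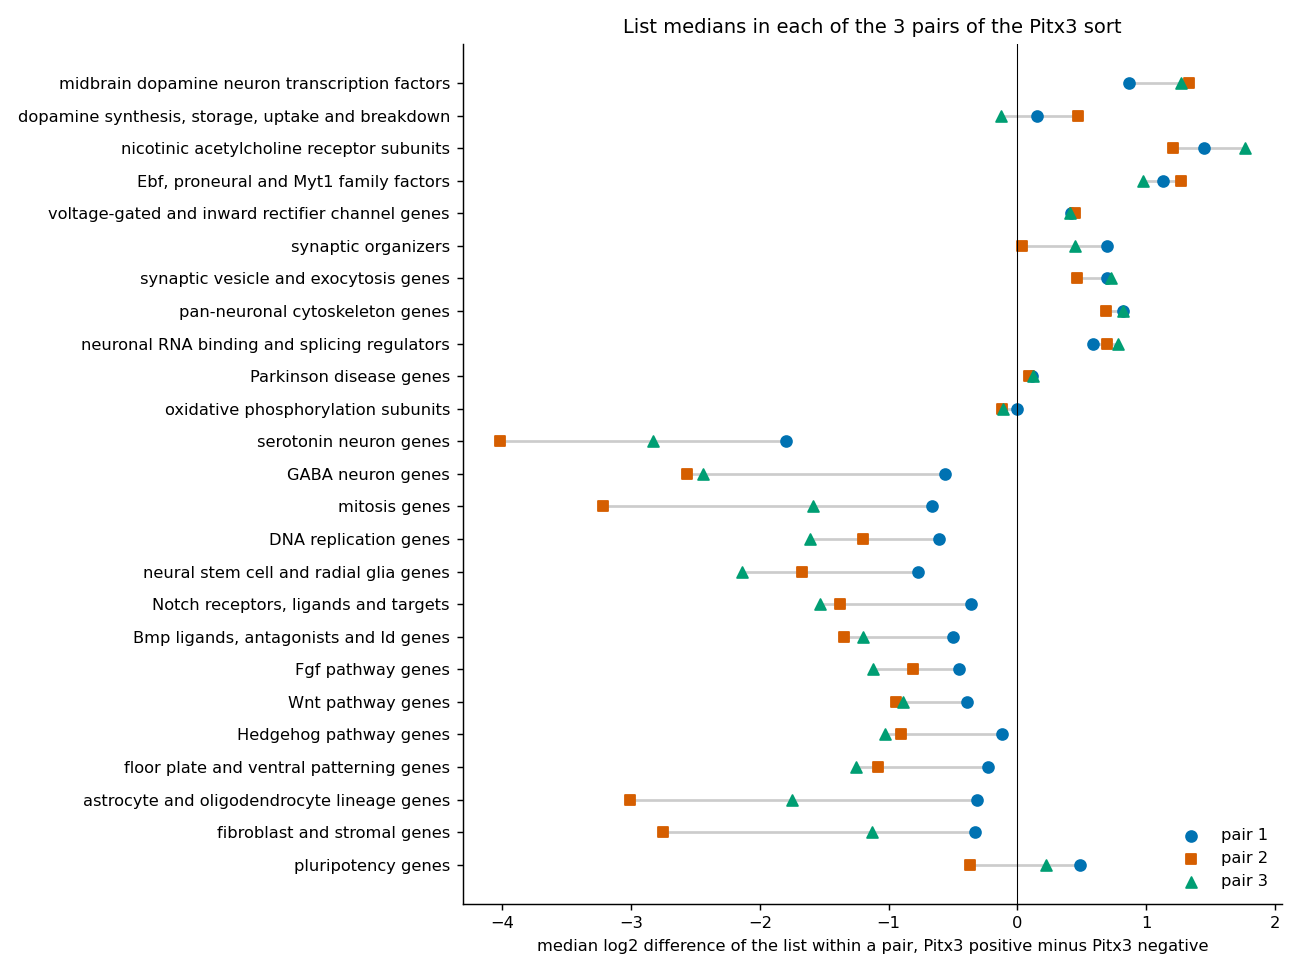
Median log2 difference of each of 25 gene lists (horizontal axis, Pitx3 positive minus Pitx3 negative) within pair 1 (circles), pair 2 (squares) and pair 3 (triangles). Cytoskeleton genes lie close together at 0.82, 0.69 and 0.82 in pairs 1 to 3, and mitosis genes far apart at -0.66, -3.22 and -1.59.

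The Pitx3 sort was then set against the sorts of the earlier reporters, each with its own 6 arrays and no array in common. In the Nurr1 sort 88 genes (0.663%) were called higher and 15 (0.113%) lower, and in the Hes5 sort 85 (0.640%) and 83 (0.625%). The 834 genes called higher in the Pitx3 sort lay above 0 in the Nurr1 sort in 811 cases (97.2%), against 47.3% of all genes, with a median of 0.59, against 0.85 in the Pitx3 sort. The 1163 genes called lower lay below 0 in the Nurr1 sort in 1137 cases (97.8%, against 52.7% of all genes), with a median of -0.54, against -1.09. In the Hes5 sort 75.7% of the first set lay above 0 (54.8% of all genes) and 49.4% of the second below 0 (45.2% of all genes). These shares describe genes, which are not independent replicates. The genes were chosen by their calls in the Pitx3 sort, which favours large differences there. The medians therefore do not show that the Nurr1 sort had smaller differences.

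A direct test found no gene that differed between the Pitx3 and Nurr1 sorts, with 0 of 13278 called by limma, a lowest adjusted p of 0.999 and 497 genes at an unadjusted p under 0.05. The sort difference of Slc6a3 was 5.16 in the Pitx3 line and 2.65 in the Nurr1 line, a step of 2.51 (SE 0.87). That of Th was 4.81 and 3.08 (step 1.72, SE 0.68), and that of Cck 3.97 and 1.59 (step 2.38, SE 0.52). With steps of this size and error, the failure to pass does not show that the sorts act alike. Serotonin genes had medians of -2.87 and -1.56, and oxidative phosphorylation genes -0.07 and -0.05.

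Against the Hes5 sort 172 genes (1.30%) had a higher and 269 (2.03%) a lower sort difference in the Pitx3 line. Negative array 2 of the Hes5 line is titled negative while its source name says positive, and without that pair the counts were 344 and 349. The 6 largest steps upward by rule were Slc6a3, Ret, Cck, Th, Slc39a4 and Necab1. Ret, for example, differed by 4.24 in the Pitx3 sort and by -0.62 in the Hes5 sort, a step of 4.86 (SE 0.68, adjusted p = 0.0227). The 6 largest downward were Serpina3n, Dlx1, Fgfbp3, Hes5, Wnt7b and Slc32a1, each below 0 in the Pitx3 sort and above 0 in the Hes5 sort. Hes5 itself differed by -2.42 and 2.04, a step of -4.46 (SE 0.68, adjusted p = 0.0234), and was the gene whose regulatory region drove the Hes5 reporter. Notch genes had a median of -0.99 in the Pitx3 sort and 0.88 in the Hes5 sort, and GABA neuron genes -1.83 and 1.65. Ebf and proneural genes were above 0 in both, with medians of 1.18 and 1.33. The total of 441 genes was 7 without the pair block, 3 with the 12 arrays of both lines fitted alone, 1 or 0 without Pitx3 pair 2 or 3, 0 without Nurr1 pair 2 and 0 without Hes5 pair 3.

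**Figure D5:**
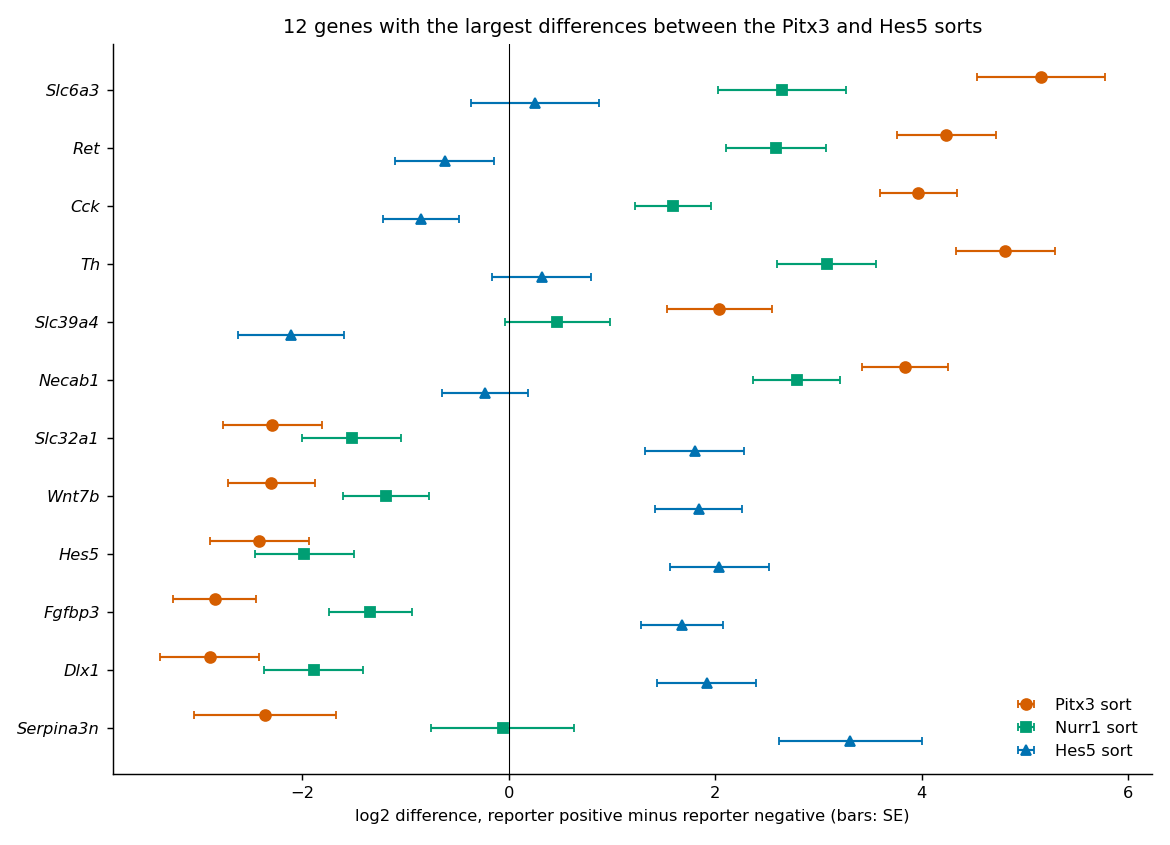
Log2 difference of reporter positive minus reporter negative cells (horizontal axis, bars SE) in the Pitx3, Nurr1 and Hes5 sorts, 3 pairs each, for the 12 genes with the largest differences between the Pitx3 and Hes5 sorts. The 6 genes below 0 in the Pitx3 sort are above 0 in the Hes5 sort, and the Nurr1 sort lies between the other two for all 12.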

How the data were processed

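Total RNA of sorted cells was labelled as biotinylated cRNA and read on mouse Illumina bead arrays, per the labels' protocols. The deposited scanner table holds, per the file headers, an average intensity, a detection p-value, a bead count and a bead spread per probe and array, and the 18 columns of bead spread were not used. The lowest bead count behind a value was 11. A second deposited table holds the authors' log2 values per gene. GenomeStudio and Partek are named in the submitters' processing notes, with no versions, and the scale and centring steps of the log2 table are not given in the sources used here.

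The scanner table has no gene names, so each gene was tied to the 1 to 4 probes whose values gave its log2 values within 0.00011. Of 31441 genes, 31100 (98.9%) were tied and 341 were not, and 0 of 300 shuffled value sets were tied. Intensities were corrected and quantile normalized with neqc in limma 3.58.1 (R 4.3.3, offset 16). Probes with a detection p under 0.01 in at least 3 arrays were kept, and the probe with the highest mean stood for a gene, leaving 13278 genes. Of 109 named genes with a second kept probe, 9 other probes had the opposite sign. Of 91 other probes of called genes, 19 were not called. Matching used Python 3.11.15 with numpy 2.4.6, pandas 2.3.3 and scipy 1.17.1, and figures matplotlib 3.10.9.

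All 18 arrays were fitted in limma with the pair as a block, two-sided, with Benjamini-Hochberg adjustment over all genes and a threshold of 0.05. The script was tested on simulated data. Same-numbered arrays of the Pitx3 line deviated together from their group means, with correlations of 0.629 to 0.772, against -0.637 to 0.169 for other numbers. They were 0.622 to 0.673 in the Nurr1 line and 0.435 to 0.715 in the Hes5 line, so the numbers were taken to pair the arrays. Deviations cancel within a group, so the correlations for same and for other numbers are not independent of each other.

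Of 45 lists, the first 4 (dopamine machinery, dopamine neuron factors, neurotrophic and nicotinic receptors) could be named whole, and each other list by up to 6 called genes per direction and 3 not called, with the reporter, the 15 largest rises, the 10 largest falls and the largest differences between sorts. The largest rises and falls were taken only from called genes whose groups did not overlap. Pou5f1 was added after its values were seen. Some genes that the rule names are not reported here. The comparison, its lists and its rules were chosen with earlier results of these data known. Of 755 listed genes 519 were tested, 198 were too dim, 27 could not be tied and 11 had no value. The label of negative array 2 of the Hes5 line is contradicted by its source name, and it was kept as its title gives it. The alternatives tried were the block, the filter, background correction, normalization, offset, probe rule, the deposited log2 table and leaving out each pair.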

Additional observations from a re-analysis of the deposited data

Results flagged for a closer look

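The sort differences of the Pitx3 and Hes5 lines were set against each other in limma, and 172 genes had a higher and 269 a lower difference in the Pitx3 line. Among genes of dopamine neurons the step, Pitx3 sort minus Hes5 sort on the log2 scale, was 4.91 for Slc6a3 (adjusted p = 0.0311), 4.86 for Ret (0.0227), 4.83 for Cck (0.0186) and 4.48 for Th (0.0234). It was 4.14 for Slc39a4 (adjusted p = 0.0308), a zinc transporter that was 2.04 in the Pitx3 sort and -2.11 in the Hes5 sort, and 4.07 for Necab1 (0.0229).

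The step was -5.68 for Serpina3n (adjusted p = 0.0308), a secreted protease inhibitor that read 6.71, 6.48 and 7.06 in Pitx3 positive arrays, against 7.80, 11.01 and 8.53 in Pitx3 negative arrays. It was -4.82 for Dlx1 (adjusted p = 0.0227), an approximate size with Dlx1 above background in 1 of 3 Pitx3 positive arrays, -4.53 for Fgfbp3 (0.0186), -4.46 for Hes5 (0.0234), -4.15 for Wnt7b (0.0229) and -4.10 for Slc32a1 (0.0289). Without the pair block the adjusted p was 0.0498 for Fgfbp3 and 0.0488 for Wnt7b and lay between 0.0857 and 0.602 for the other 10 genes. The cause was not tested.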

How the results depend on the processing

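The pairing of the arrays carried most calls. Without the replicate block 47 genes were called higher and 9 lower, and the Pitx3 against Hes5 comparison fell to 7 genes, against 441 with it. Leaving out 1 pair gave 14 to 1419 genes higher, 2 to 1755 lower and 0 to 704 between the Pitx3 and Hes5 sorts. With the arrays of the lines compared fitted alone, 821 genes were higher, 634 lower and 3 differed between the sorts. Without the filter on dim probes 585 were lower and 69 differed. With no normalization between arrays 331 were higher and 746 lower, while 332 were higher and 728 lower in the authors' deposited log2 table, and 30.7% and 31.3% of calls were then higher, against 41.8%. That share was 83.9% without the block, 56.4% with lines alone and 50.2% without the filter. The Pitx3 against Nurr1 comparison called 0 genes in every alternative run. All 834 and 1163 called genes kept their sign wherever they were in the table, which held 1866 of the 1997 when detection in all 3 arrays of a group was required. Dropping the block, fitting the Pitx3 arrays alone or leaving out a pair of another line cannot change a difference. Those runs therefore do not test the sign. Nearly all called genes had the same sign in all 3 pairs, so leaving out a Pitx3 pair could hardly change it either. The cause of the changes in the counts was not tested. The 3 arrays of each group and signals near background limit the precision for dim genes, and a bound was given only where no array of a group was above background.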
